A study of Mus musculus with 24 samples.

Results

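The genes described here are 39 members of the machinery that folds and exports proteins through the endoplasmic reticulum (ER), out of 19937 genes that could be read on the arrays. They were listed by name, and each was read from the probe set that carries its symbol alone, or from the one with the highest mean over the 24 arrays where there were several. All 39 were found, Ero1l through its current symbol Ero1a. By role they are 8 stress sensors and transcription factors, 11 chaperones and cofactors, 5 disulfide-forming enzymes, 7 proteins of ER-associated degradation, 6 proteins of the translocon and signal peptidase, and 2 proteins of the COPII coat. Every one of the 39 lay above the median of all gene means, at a log2 level of 4.66, so none was lost to a filter on dim genes.

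RNA levels were read with Affymetrix mouse Gene 1.0 ST arrays from epithelium sorted from mammary glands of mice of mixed FVB/C57BL6 background. All mice carried Lgr5-creERT2, a Cre recombinase that tamoxifen activates in cells expressing Lgr5, and all glands were taken 4 weeks after tamoxifen. Mutant mice also carried the PIK3CA H1047R transgene, an activated form of the catalytic subunit of PI3-kinase, and control mice did not. Each array was made from RNA of 250 cells, amplified before hybridisation, from glands of 2 to 3 estrus-synchronised mice pooled per genotype, and there were 3 independent sortings. Cells lacking CD45 were divided into basal (CD24 low, Sca1 negative) and luminal (CD24 high) cells. Below, the pools of a group are its 3 arrays, and pools of different gates of the same genotype may come from the same mice. There were 8 groups of 3 arrays: control and mutant basal GFP-negative, control and mutant basal GFP-positive, control and mutant luminal Sca1-negative, and control and mutant luminal Sca1-positive. GFP stands for expression of Lgr5, of the transgene or of both, per the labels. The luminal cells were GFP-negative in control and GFP-positive in mutant mice, so genotype and GFP state cannot be told apart there.

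Proteins bound for secretion enter the ER through the Sec61 translocon, lose their signal peptide to signal peptidase, and fold with the help of chaperones and of enzymes that form disulfide bonds. Proteins that fail to fold are drawn back into the cytosol and degraded, and those that pass leave in COPII-coated vesicles. When unfolded proteins build up, the sensors IRE1 (Ern1), PERK (Eif2ak3) and ATF6 start the unfolded protein response through the factors XBP1, ATF4 and cleaved ATF6. Secretory alveolar cells of the mammary gland, which export caseins and whey proteins, use the same machinery.

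The lineage markers separated the basal from the luminal gates, although some mutant luminal pools carried basal transcripts. Krt5 and Krt14, keratins of basal cells, ranged over the basal groups from 11.53 to 11.92 (Krt5) and from 11.22 to 11.59 (Krt14) in mean log2 level. In control luminal groups Krt5 stood at 5.21 and 5.32, while it reached 8.50 ± 0.52 (SD, n = 3) in mutant luminal Sca1-negative pools. In mutant luminal Sca1-positive pools it stood at 7.98, 5.18 and 6.28, and Krt14 at 8.97, 6.90 and 6.41, so that pool 1 was the highest for both. Krt8 and Krt18, luminal keratins, had luminal means of 12.45 to 12.67 (Krt8) and 12.59 to 12.77 (Krt18), against basal means of 10.60 to 11.00 (Krt8) and 9.63 to 11.09 (Krt18). Ptprc, which encodes CD45, stood at 4.06 to 4.36 in all 8 groups, below the median of all genes. Of 12 leukocyte markers 11 were below that median in each group, and of 9 plasma and B cell markers 6 to 8 were. Of the control basal GFP-positive arrays, 2 of 3 stood apart in signal. The standard deviations of the 3 over all genes were 1.70, 1.77 and 1.68, against 1.76 to 1.89 on the other 21 arrays, and their dim genes had means of 4.08, 4.03 and 4.11, against 3.94 to 4.04. The comparison of mutant with control basal GFP-positive cells is therefore also given against the control basal GFP-negative group, and every comparison that uses that group also without the 2 arrays. The 1 array then left is assumed to vary like the other groups.

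Across the 8 groups the range of a member's level varied by gene, while in some of the comparisons below most members shared a sign. The mean of the sensor Ern1 ranged by 2.57 log2 units between its lowest and highest group, the widest of the 39, where 1 log2 unit is a 2-fold change. Sec24d of the COPII coat followed with 2.14, then the stress factor Creb3l2 with 1.94 and the sensors Eif2ak3 with 1.82 and Atf6 with 1.70. The abundant chaperones had narrower ranges, of 0.68 for Hsp90b1, 0.71 for Hspa5 and 0.74 for Calr. The highest of the 8 group means was in mutant luminal Sca1-negative cells for 12 members, or 30.8%. It was in control luminal Sca1-positive cells for 10 and in mutant basal GFP-positive cells for 10, or 25.6% each. Of the 9969 genes above the median 13.6%, 16.3% and 12.4% were highest in these groups, in the same order. The lowest was in control basal GFP-positive cells for 15 members, or 38.5%, and of the 9969 genes above the median 20.5% were lowest there. No member was highest in that group or in mutant luminal Sca1-positive cells, beside 14.6% and 13% of the genes above the median. In bulk samples such as these, fewer cells of a type and less RNA per cell cannot be told apart.

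**Figure D1:**
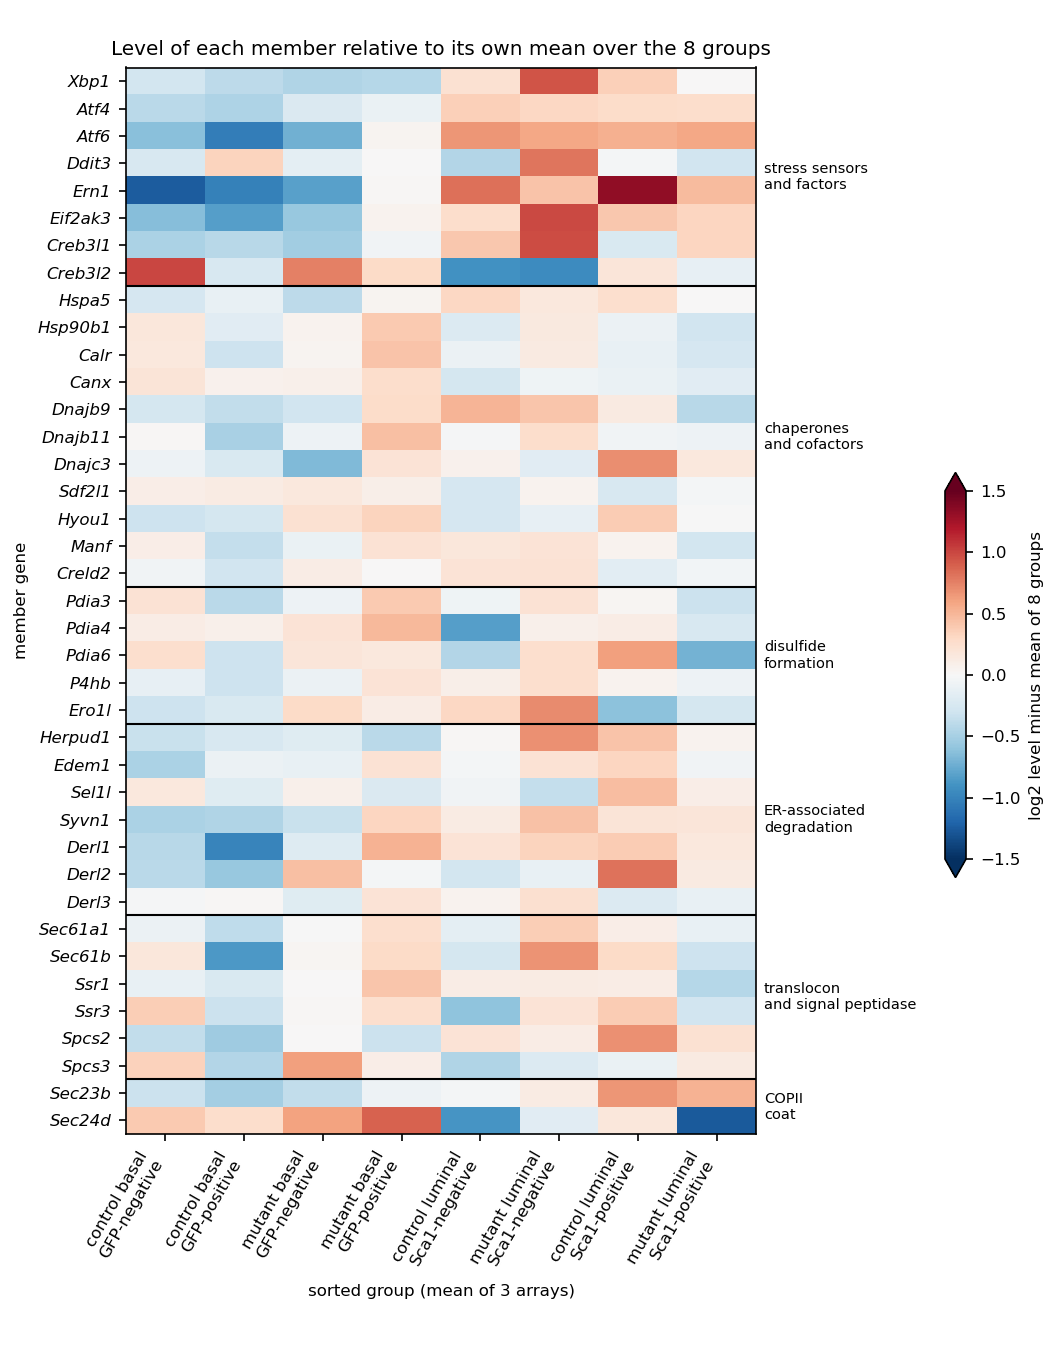
Log2 level of each of the 39 members in the 8 sorted groups (columns, mean of 3 arrays), minus that member's mean over the 8 groups, with the members in rows ordered by role; red is higher and blue lower. Ern1, Atf6 and Eif2ak3 are lower in every basal group than in any luminal group, and near their own mean in mutant basal GFP-positive cells. The lowest mean is in control basal GFP-positive cells for 15 members.

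Several of these genes carry in their promoters the ER stress response element (ERSE), to which ATF6 and XBP1 bind with the factor NF-Y, and the sequences of 5 of the 6 called members that hold it are shown (Canx is the other), because their levels recur in the comparisons that follow. Promoter windows from RefSeq (build GRCm38.p6) run from 250 bases before to 50 bases after the annotated gene start, and 32 of the 39 members had one. The element was searched on both strands as CCAAT, 9 bases of any kind, then CCACG. It was found in 9 of the 32 members (28.1%) and in 37 of 27025 genes with a window (0.137%). The 9 were Calr, Canx, Creld2, Derl3, Dnajc3, Hsp90b1, Hspa5, Pdia6 and Syvn1. The stretches below lie at chr2:34772010-34772058 (plus strand) for Hspa5, chr10:86705518-86705566 (minus strand) for Hsp90b1, chr8:84847060-84847108 (minus strand) for Calr, chr12:17266476-17266524 (plus strand) for Pdia6 and chr19:6046517-6046565 (plus strand) for Syvn1. They are written 5′ to 3′ on the gene's strand with the element in capitals, which reads backwards (from CGTGG to ATTGG) in Hsp90b1 and Calr. Hsp90b1 held another match further upstream.
Hspa5: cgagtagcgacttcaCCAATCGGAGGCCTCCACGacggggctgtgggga
Hsp90b1: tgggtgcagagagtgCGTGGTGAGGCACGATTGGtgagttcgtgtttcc
Calr: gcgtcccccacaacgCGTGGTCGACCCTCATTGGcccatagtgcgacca
Pdia6: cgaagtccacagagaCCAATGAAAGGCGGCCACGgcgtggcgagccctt
Syvn1: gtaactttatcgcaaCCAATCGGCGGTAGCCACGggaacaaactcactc
Related elements were rarer among the members. The unfolded protein response element (TGACGTGG, both strands) was found in Sec24d alone among the 32 members and in 193 of the 27025 genes (0.714%). The C/EBP-ATF response element, at which ATF4 acts (TGATGCAA, both strands), was found in Herpud1 alone and in 279 genes (1.03%). The element known as ERSE-II was found in Dnajb11 and Herpud1 and in 12 genes (0.0444%). A match describes these letters only.

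The mean of the ER members went with that of the milk proteins in some groups only, and against it in luminal Sca1-positive cells. Both means were lowest in control basal GFP-positive and highest in mutant luminal Sca1-negative cells. The mean log2 level of 8 milk proteins was 4.60 ± 0.40 (SD, n = 3) in control basal GFP-positive cells, 5.34 ± 0.28 in control and 6.60 ± 0.50 in mutant basal GFP-negative cells, 7.89 ± 0.21 in control luminal Sca1-negative, 8.39 ± 0.73 in mutant basal GFP-positive, 8.71 ± 0.88 in mutant luminal Sca1-positive and 9.83 ± 0.26 in mutant luminal Sca1-negative cells. The mean of the 39 members moved between 7.80 ± 0.09 in control basal GFP-positive and 8.38 ± 0.02 in mutant luminal Sca1-negative cells. That lowest group is the one with arrays that stood apart in signal. The members' mean changed little over control basal GFP-negative (8.02 ± 0.05), mutant basal GFP-negative (8.07 ± 0.10) and control luminal Sca1-negative cells (8.10 ± 0.15). In mutant basal GFP-positive cells it was 8.29 ± 0.06. In control luminal Sca1-positive cells the milk protein mean was 5.64 ± 0.29 while the members' mean was 8.35 ± 0.16, and in mutant luminal Sca1-positive cells the members' mean was 8.07 ± 0.07. So the luminal Sca1-positive group with the lower milk protein mean had the higher mean of ER members, and their 3 arrays did not overlap: 8.46, 8.17 and 8.43 in control and 8.15, 8.05 and 8.01 in mutant pools. Csn2, which encodes β-casein, rose by 6.05 on the log2 scale between those groups (limma adjusted p = 1.555e-05), and Csn1s1, another casein, by 5.62 (7.554e-05).

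**Figure D2:**
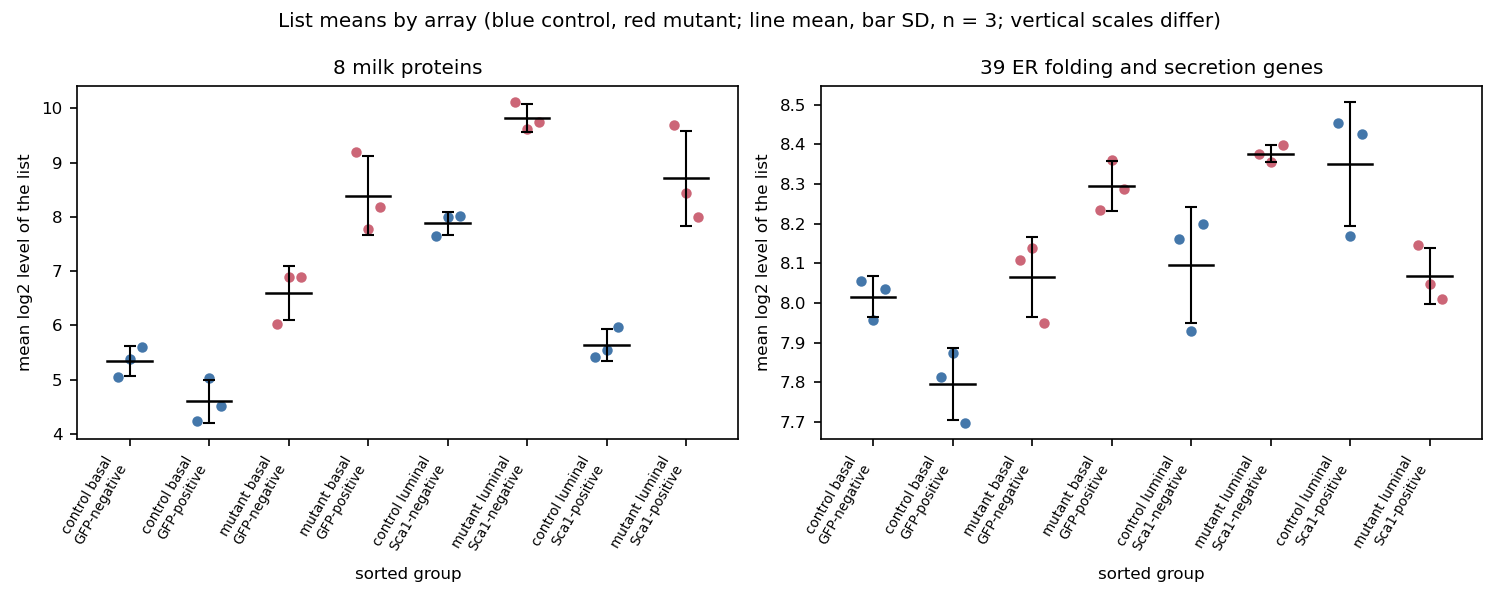
Mean log2 level of 8 milk proteins (left) and of the 39 ER members (right) on each array by sorted group, with points for arrays, lines for group means and bars for SD (n = 3); the vertical scales differ. Milk proteins are near 8 or above in 4 groups, and the ER members have their 2 highest group means, 8.38 and 8.35, in groups with milk protein means of 9.83 and 5.64.

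The first comparison asked how the machinery differs between lineages in control mice. In luminal Sca1-negative cells 7 of the 39 members were higher and 5 lower than in basal GFP-negative cells, beside 4.93% of all genes called higher and 4.9% called lower. A gene was called where its Benjamini-Hochberg adjusted p from the limma fit was under 0.05, and errors of differences are standard errors of that fit. In luminal Sca1-positive cells 10 members were higher and 0 lower, beside 7.35% and 5.77% of all genes. Among the 9969 genes above the median, 8.8% were called higher and 8.8% lower in Sca1-negative cells. In Sca1-positive cells these shares were 13.3% and 9.64%. The median difference of the 39 was 0.13 and 0.22, and that of all genes 0.02 and -0.03.

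All 3 sensors, Ern1, Atf6 and Eif2ak3, were among the 7 and the 10 higher members. Ern1, the kinase and nuclease that splices Xbp1 mRNA, had log2 levels of 5.09, 5.0 and 6.03 in basal pools, 7.52, 6.77 and 8.05 in luminal Sca1-negative and 7.95, 7.41 and 8.48 in luminal Sca1-positive pools. Every luminal pool lay above every basal pool, by 2.07 ± 0.42 on average in Sca1-negative (adjusted p = 0.002846) and 2.57 ± 0.42 in Sca1-positive cells (adjusted p = 0.0002626), or 4.21-fold and 5.94-fold. Atf6, the sensor that is cut in the Golgi, stood at 7.44, 6.78 and 8.09 in basal pools, at 8.69, 8.64 and 8.83 in Sca1-negative and at 8.62, 8.38 and 8.76 in Sca1-positive pools. The 3 luminal pools of each group lay above the basal ones, with differences of 1.28 ± 0.32 and 1.15 ± 0.32. Eif2ak3, the kinase PERK, stood at 5.79, 5.30 and 5.15 in basal, 6.60, 5.76 and 6.56 in Sca1-negative and 6.56, 6.53 and 6.25 in Sca1-positive pools. It was higher by 0.90 ± 0.27 and 1.03 ± 0.27, although 1 Sca1-negative pool lay within the basal range. Atf4, the factor downstream of PERK, stood at 9.54, 9.11 and 9.41 in basal, 9.85, 10.35 and 10.14 in Sca1-negative and 9.98, 10.05 and 10.07 in Sca1-positive pools, without overlap.

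The membrane-bound factors Creb3l1 and Creb3l2 went opposite ways. Creb3l1 had levels of 4.59, 4.78 and 4.54 in basal pools, near the median of all genes, and of 5.38, 5.69 and 5.49 in luminal Sca1-negative pools, a difference of 0.89 ± 0.26 whose call was lost in each of the 6 fits without 1 array. In Sca1-positive pools it stood at 5.57, 4.52 and 4.58, so that 1 pool was high and the others at the basal level. Creb3l2 stood at 8.27, 6.98 and 7.73 in basal and at 6.82, 4.97 and 5.46 in Sca1-negative pools, lower by 1.91 ± 0.44 on the log2 scale, with no overlap. Xbp1, the factor that IRE1 activates, was not called in either comparison. Its levels were 6.91, 7.79 and 7.69 in basal, 7.72, 7.71 and 8.47 in Sca1-negative and 8.03, 8.03 and 8.22 in Sca1-positive pools.

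Of the chaperones only Hspa5, which encodes BiP, the main ER chaperone, was called higher in both luminal groups. It had levels of 10.77, 10.97 and 10.81 in basal, 11.36, 11.32 and 11.56 in Sca1-negative and 11.44, 11.11 and 11.52 in Sca1-positive pools. The groups did not overlap, and the differences were 0.57 ± 0.10 (1.48-fold, limma adjusted p = 0.0009469) and 0.51 ± 0.10 (1.42-fold, limma adjusted p = 0.001826). Canx, the membrane lectin chaperone calnexin, was lower in Sca1-negative cells, at 9.97, 9.97 and 10.21 against 10.48, 10.57 and 10.48. The other 9 chaperones were not called in either comparison.

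The remaining roles split between the luminal groups. Pdia6, a disulfide isomerase that also binds the sensors, stood at 9.26, 9.23 and 9.12 in control basal GFP-negative pools, at 8.33, 8.49 and 8.71 in Sca1-negative and at 9.74, 9.26 and 9.71 in Sca1-positive pools. Ssr3, a subunit of the translocon-associated complex TRAP, stood at 9.42, 9.72 and 9.52, at 7.83, 9.0 and 8.90, and at 9.71, 9.30 and 9.68 in the same groups. Both were therefore lower in Sca1-negative than in basal cells, by 0.70 ± 0.21 for Pdia6 and 0.98 ± 0.25 for Ssr3 on the log2 scale. Spcs3, a subunit of signal peptidase, fell from 8.45, 8.98 and 8.43 to 8.17, 7.49 and 7.82 in Sca1-negative pools. Another subunit, Spcs2, rose in Sca1-positive cells, from 7.34, 7.65 and 7.09 to 8.78, 8.02 and 8.42, by 1.05 ± 0.23. Derl2, a channel protein of ER-associated degradation, was at 5.64, 5.80 and 5.60 in basal and 7.28, 5.88 and 7.53 in Sca1-positive pools, where 1 pool stayed close to the basal level. Sec23b, a COPII coat protein, rose from 6.45, 6.23 and 5.89 to 7.36, 6.69 and 7.44 in Sca1-positive pools, with no overlap.

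Syvn1, the ubiquitin ligase HRD1 of ER-associated degradation, was higher in both luminal groups, at 8.40, 7.86 and 8.01 in Sca1-negative and 7.91, 8.06 and 8.52 in Sca1-positive against 7.84, 7.42 and 7.20 in basal pools. Edem1, a lectin that marks glycoproteins for degradation, was higher in Sca1-positive cells by 0.79 ± 0.25. Between the control luminal groups only Pdia6 (1.06 ± 0.21, limma adjusted p = 0.005708) and Ssr3 (0.99 ± 0.25, limma adjusted p = 0.0361) were called, both higher in Sca1-positive cells, beside 2.08% of all genes called higher and 1.61% lower. After quantile normalization 45.7% of the called genes in that comparison were higher, against 56.5% as deposited. The calls between lineages lean on the spread pooled over all groups. With only the compared groups in the fit, 3 of the 12 members remained called in Sca1-negative and 3 of the 10 in Sca1-positive cells. Leaving out 1 array in turn gave 3 to 10 calls and 4 to 9 calls, with 3 calls in Sca1-negative cells without basal pool 2 and 4 in Sca1-positive cells without luminal Sca1-positive pool 3. The calls of Canx and Pdia6 in Sca1-negative cells and of Derl2 in Sca1-positive cells held in 1 of 6 such fits. Those of Eif2ak3 and Syvn1 in Sca1-negative cells and of Atf6 and Edem1 in Sca1-positive cells held in 2 of 6. The calls of Ern1 and Hspa5 held in all 6 in both luminal groups.

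The next comparison set mutant against control basal GFP-positive cells. As control mice lack the transgene, GFP may mark other cells in mutant mice. Genotype and the kind of cells marked therefore cannot be told apart in this comparison either. Here 9 of 39 members were higher in mutant cells and 0 lower, beside 4.74% of all genes called higher and 7.81% lower; among the 9969 genes above the median, 8.65% were called higher. The difference was positive for 34 of the 39, with a median of 0.52, where the median of all genes was -0.10 and that of the brighter genes 0.08. The 9 were the degradation factors Derl1 and Syvn1, the sensors Atf6 and Eif2ak3, the chaperones Calr and Hsp90b1, the isomerase Pdia3, the translocon subunit Sec61b and the TRAP subunit Ssr1. The control group of this comparison is the one with 2 arrays that stood apart. Set against control basal GFP-negative cells, the mutant basal GFP-positive cells had 1 member called, Syvn1 (0.80 ± 0.19), and a median of 0.28 over the 39, with 2.29% of all genes called higher. Without the 2 control arrays that stood apart, 2 members were called, Syvn1 and Sec61b, and the median was 0.48, with 1.47% of all genes called higher.

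Calr, the soluble lectin chaperone calreticulin, had log2 levels of 10.44, 10.57 and 10.44 in control and 11.04, 11.24 and 11.40 in mutant pools. All mutant pools were above all control pools, by 0.74 ± 0.13 (1.67-fold, limma adjusted p = 0.002414), but against control basal GFP-negative pools, at 11.05, 10.79 and 11.02, the difference was 0.27. Hsp90b1, the ER form of HSP90, went from 10.86, 10.92 and 10.83 to 11.31, 11.43 and 11.57, by 0.57 ± 0.12, and its difference from control basal GFP-negative pools was 0.23. Pdia3, the isomerase that works with calreticulin and calnexin, went from 9.52, 9.85 and 9.55 to 10.35, 10.49 and 10.50, by 0.80 ± 0.15 (limma adjusted p = 0.002753), and by 0.18 against the other reference. For these 3 abundant folding factors the control GFP-positive pools were thus the low group among the basal groups, and the mutant GFP-positive pools the high one.

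Derl1, which forms part of the retrotranslocation channel, showed the largest difference of the 9. It stood at 7.15, 8.52 and 7.23 in control and 9.09, 9.24 and 9.13 in mutant pools (1.52 ± 0.33, 2.86-fold, limma adjusted p = 0.008414). The mutant pools were tightly grouped and 1 control pool lay closer to them. The 2 lower control pools were the arrays that stood apart, and without them the difference of Derl1 was 0.63. Against control basal GFP-negative pools it was 0.94 and was not called. Syvn1 stood at 7.45, 7.30 and 7.79 in control and 8.33, 8.43 and 8.10 in mutant pools (0.77 ± 0.19), and at 7.84, 7.42 and 7.20 in the control GFP-negative pools. It was the member whose difference was called against either control group. Its call against control GFP-positive pools was lost after quantile normalization (0.48, limma adjusted p = 0.1669). That call was also lost with only the compared groups in the fit and without mutant pool 2. Sec61b, the β subunit of the translocon, stood at 9.35, 8.39 and 9.01 in control and 10.06, 10.10 and 10.04 in mutant pools. Its difference of 1.15 ± 0.30 fell to 0.11 against control GFP-negative pools, while its other probe sets differed by 1.84 and 1.11 in the GFP-positive comparison. Its call held in 1 of the 6 fits without 1 array.

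Atf6 stood at 6.76, 7.47 and 6.83 in control and 8.36, 8.0 and 7.95 in mutant GFP-positive pools, and Eif2ak3 at 5.38, 5.16 and 5.12 and 6.35, 6.34 and 5.61. Both rose, by 1.08 ± 0.32 and 0.88 ± 0.27, but of the 6 fits without 1 array only 1 kept the call of Eif2ak3 and 1 that of Atf6. Ssr1 went from 8.49, 8.11 and 8.03 to 8.97, 8.83 and 8.78. The 9 members with an ERSE match had 3 calls and a median of 0.44, and the 23 with a window and no match had 4 calls and a median of 0.51. Hspa5 stood at 10.93, 11.11 and 10.94 in control and 11.01, 11.26 and 11.15 in mutant GFP-positive pools, and Xbp1 at 7.63, 7.20 and 7.21 and 7.01, 7.55 and 7.35. Neither was called, and for both genes the pools overlapped.

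The count of 9 depends on how the arrays are set against each other. After quantile normalization 3 members were called (Calr, Pdia3 and Derl1) and the median was 0.27, and with only the compared groups in the fit 0 were called. It was 5 without mutant pool 1 and 5 without mutant pool 2. Markers of other cells moved in the same comparison. The mean level of 5 luminal progenitor or alveolar markers was 5.20 to 5.70 in control and 7.66 to 8.07 in mutant pools, with 3 of the 5 called higher. For 6 fibroblast markers it was 4.91 to 5.11 and 5.62 to 5.85, with 2 of 6 called higher and 2 of 6 below the median of all genes in each group. The 8 milk proteins had 6 called higher, and of 19 immediate early and dissociation stress genes 6 were called lower and 1 higher. Their part in the result was not tested.

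**Figure D3:**
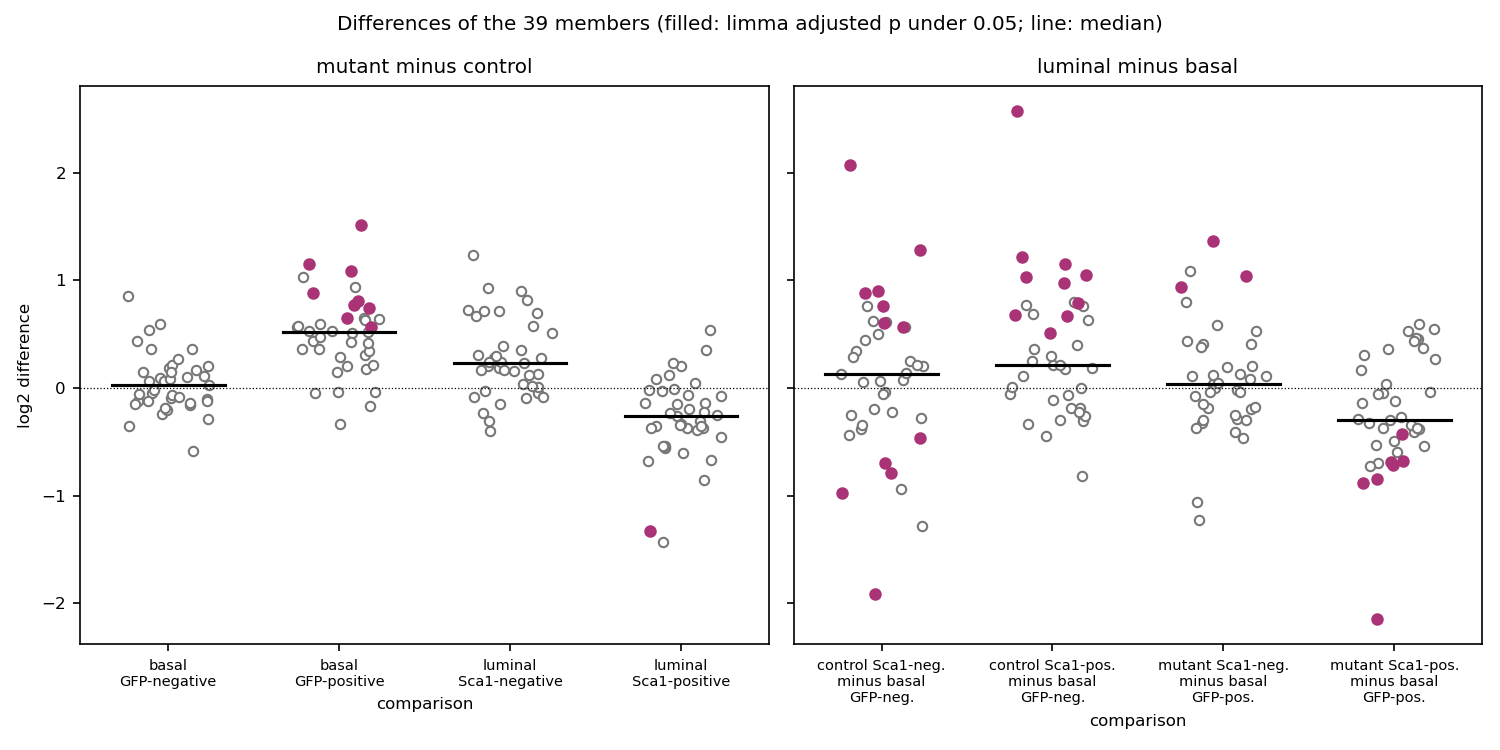
Log2 differences of the 39 members (points) in the mutant minus control comparison of each gate (left) and in luminal minus basal comparisons (right), filled where the limma adjusted p is under 0.05, with lines at the median. The medians of mutant minus control are 0.03, 0.52, 0.23 and -0.26 from left to right, and filled points are all above 0 in basal GFP-positive cells.

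In basal GFP-negative cells 0 of 39 members were called between mutant and control by limma, beside 0.0451% of all genes called higher and 0.015% lower, and 1 member had an unadjusted p under 0.05, beside 6.31% of all genes. The median difference was 0.03. Within control mice, Pdia3 alone was lower in GFP-positive than in GFP-negative basal cells (9.64 against 10.27, by 0.63 ± 0.15 on the log2 scale), beside 0.507% of all genes called higher and 0.747% lower. The median of the 39 was -0.16 as deposited and -0.02 after quantile normalization, when 54.5% of called genes were higher, against 40.4% as deposited. Within mutant mice, Hspa5 alone was higher in GFP-positive cells, at 11.01, 11.26 and 11.15 against 10.76, 10.75 and 10.62, by 0.43 ± 0.10 (1.35-fold, limma adjusted p = 0.02726), beside 1.77% of all genes higher and 0.737% lower. The call of Hspa5 was lost after quantile normalization (adjusted p = 0.07114), and that of Pdia3 likewise (adjusted p = 0.1008). Without the 2 control GFP-positive arrays that stood apart, the difference of Pdia3 was -0.42 (adjusted p = 0.4959).

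The genotype difference itself was set against GFP state, which may mark different cells in control and mutant mice. It was larger in GFP-positive than in GFP-negative basal cells for Calr, by 0.86 ± 0.19 (limma adjusted p = 0.03228), and for Pdia3, by 1.09 ± 0.21 (limma adjusted p = 0.01324), beside 1.07% of all genes called either way. In GFP-negative cells Calr stood at 11.05, 10.79 and 11.02 in control and 10.94, 10.90 and 10.66 in mutant pools, and Pdia3 at 10.04, 10.26 and 10.50 and 10.14, 10.08 and 9.71. The control and mutant pools overlapped for both genes there. For Calr the call was lost in 8 of the 12 fits without 1 array, and for Pdia3 in 0 of 12. Both calls ended without the 2 control GFP-positive arrays that stood apart, with estimates of 0.77 (adjusted p = 0.1767) for Calr and 0.89 (adjusted p = 0.1283) for Pdia3.

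**Figure D4:**
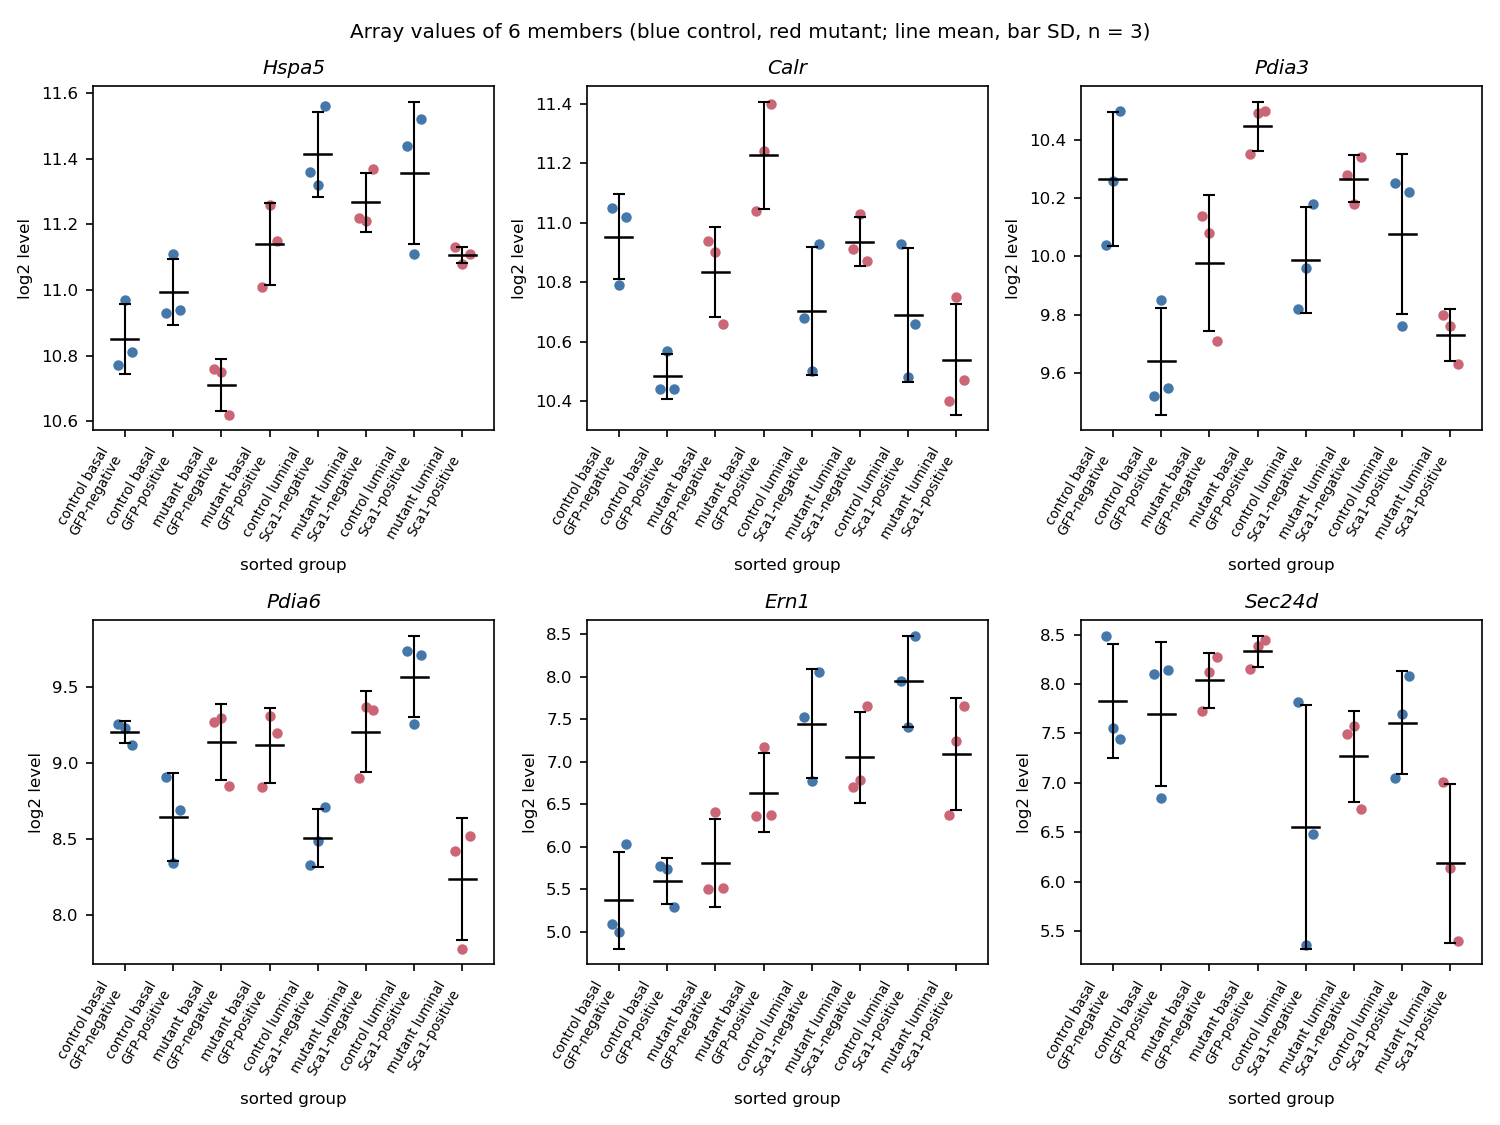
Log2 level of Hspa5, Calr, Pdia3, Pdia6, Ern1 and Sec24d on each array (points) by sorted group, with lines for means and bars for SD (n = 3); each panel has its own vertical scale. Calr and Pdia3 have their lowest mean in control basal GFP-positive and highest in mutant basal GFP-positive pools, and Pdia6 is highest in control luminal Sca1-positive and lowest in mutant luminal Sca1-positive pools.

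In luminal Sca1-negative cells, the gate with the highest milk protein levels, 0 of 39 members were called between mutant and control by limma, beside 0.557% of all genes called higher and 0.171% lower. There, 8 members had an unadjusted p under 0.05 and were higher in mutant cells, beside 5.43% of all genes, and 0 were lower. Among them Ddit3, which encodes the stress factor CHOP, stood at 5.76, 5.60 and 6.02 in control and 6.88, 6.87 and 7.33 in mutant pools (1.24 ± 0.41, limma adjusted p = 0.2419). Sec61b stood at 9.51, 9.09 and 9.97 and 11.10, 10.21 and 10.04 (0.93 ± 0.30, limma adjusted p = 0.2279). The pools did not overlap for either gene, nor for Pdia4, Pdia6 and Ssr3 among the 8. Of all genes 4.14% met that p, were higher and had pools that did not overlap. The median over the 39 was 0.23 as deposited and 0.06 after quantile normalization, and 63.8% of called genes were then higher, against 76.6%.

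Over the same comparison 2 of the 8 milk proteins, Wap and Csn2, were called higher. Wap, the whey acidic protein, went from 5.33 ± 1.22 (SD, n = 3) to 11.22 ± 0.59, and Csn2 from 9.07 ± 0.35 to 12.51 ± 0.13, with limma adjusted p of 0.005099 and 0.008157. Csn3, the κ-casein, stood at 10.81, 11.03 and 11.07 in control and 11.07, 11.0 and 11.14 in mutant pools, and Csn1s2b between 3.53 and 3.61 in both groups. Hspa5 went from 11.36, 11.32 and 11.56 to 11.22, 11.21 and 11.37, with overlap. Ero1l, the oxidase that recharges disulfide isomerases, stood at 7.60, 8.52 and 8.05 in control and 8.36, 8.69 and 8.31 in mutant pools. Creb3l1 stood at 5.38, 5.69 and 5.49 and at 6.42, 5.45 and 6.41, and Derl3, a degradation factor known from professional secretory cells, at 4.94, 5.21 and 4.90 and 5.51, 5.17 and 4.93. None of these was called. Basal markers moved in the same comparison: their mean was 5.32 to 5.52 in control and 6.76 to 7.43 in mutant pools, with 2 of 6 called higher, and their part was not tested.

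In luminal Sca1-positive cells the members leaned the other way. Of 39, 32 were lower in mutant cells in sign, with a median of -0.26 (all genes 0), and 1 was called, Pdia6, beside 0.401% of all genes called higher and 0.376% lower. Pdia6 stood at 9.74, 9.26 and 9.71 in control and 8.42, 7.78 and 8.52 in mutant pools, without overlap, and fell by 1.33 ± 0.21 on the log2 scale (limma adjusted p = 0.002139). Its call held in each of the 6 fits without 1 array, and ended with only the compared groups in the fit (adjusted p = 0.2231). Sec24d, the COPII cargo adaptor, had the larger fitted difference and was not called, with 7.05, 7.70 and 8.08 in control and 7.01, 6.14 and 5.40 in mutant pools (-1.43 ± 0.52, limma adjusted p = 0.3809). Markers of other cells moved in the same comparison, and their part was not tested. The mean of 5 luminal progenitor or alveolar markers was 6.17 to 6.44 in control and 7.13 to 8.90 in mutant pools (1 called higher), that of 4 hormone-sensing markers 8.47 to 9.13 and 7.46 to 8.63 (1 called lower), and that of 6 basal markers 5.36 to 5.60 and 5.23 to 6.81 (0 called). The difference in Pdia6 ran the opposite way in Sca1-negative cells, at 8.33, 8.49 and 8.71 in control and 8.90, 9.37 and 9.35 in mutant pools, where it was not called (limma adjusted p = 0.1711).

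The test of that difference between the luminal gates called Pdia6 alone, at -2.02 ± 0.30 (limma adjusted p = 0.003345), beside 0.161% of all genes called either way. The estimate was negative for 36 of 39 members, with a median of -0.37, and of -0.17 after quantile normalization. Sec61b, at -1.53 ± 0.43, was not called (limma adjusted p = 0.2915). In 24 of 39 members the fitted difference was above 0 in Sca1-negative and below 0 in Sca1-positive cells, and in 1 the reverse. Between the luminal Sca1-negative and the basal GFP-positive gate, 0 of 39 genotype differences differed by limma, beside 1.03% of all genes called either way. At an unadjusted p under 0.05 there were 7, beside 11.8% of all genes. Without the 2 control basal GFP-positive arrays that stood apart 0 were called.

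Among mutant GFP-positive cells, luminal Sca1-negative cells had 3 members higher than basal cells and 0 lower, beside 3.62% and 4.24% of all genes. The 3 are 7.7% of the members, and among the 9969 genes above the median 6.16% were called higher and 7.03% lower. Xbp1 stood at 7.01, 7.55 and 7.35 in basal and 8.45, 9.46 and 8.11 in luminal pools (1.37 ± 0.34, 2.58-fold, limma adjusted p = 0.01531). Creb3l1 stood at 5.03, 5.05 and 5.09 and at 6.42, 5.45 and 6.41 (1.04 ± 0.26), and Eif2ak3 at 6.35, 6.34 and 5.61 and at 6.43, 7.09 and 7.59 (0.94 ± 0.27). All 3 are stress sensors or factors, and their pools did not overlap. The count rests on single arrays, since 1 call was left without mutant basal pool 1, without luminal Sca1-negative pool 2 or without its pool 3.

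Mutant luminal Sca1-positive cells had 7 members lower than mutant basal GFP-positive cells and 0 higher, beside 4.99% of all genes lower and 4.73% higher. Among the 9969 genes above the median 8.47% were called lower and 7.88% higher. The 7 were Sec24d, Pdia6, Ssr1, Pdia3, Calr, Hsp90b1 and Canx, with 4 of them among the 9 that hold an ERSE match. Sec24d stood at 8.15, 8.39 and 8.45 in basal and 7.01, 6.14 and 5.40 in luminal pools, lower by 2.14 ± 0.52 on the log2 scale (limma adjusted p = 0.01089). Hsp90b1 stood at 11.31, 11.43 and 11.57 and at 10.70, 10.77 and 10.81 (-0.68 ± 0.12), and Calr at 11.04, 11.24 and 11.40 and at 10.40, 10.75 and 10.47 (-0.68 ± 0.13). Pdia3 stood at 10.35, 10.49 and 10.50 and at 9.80, 9.76 and 9.63, Ssr1 at 8.97, 8.83 and 8.78 and at 8.18, 7.84 and 8.02, and Pdia6 at 8.84, 9.31 and 9.20 and at 8.42, 7.78 and 8.52. The pools of the 7 members did not overlap between the groups, and the calls of Hsp90b1, Calr, Pdia3 and Ssr1 held in all 13 other settings. That of Canx held in 5 of the 13, and in 1 of the 6 fits without 1 array.

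Between the mutant luminal groups 30 of 39 members were lower in Sca1-positive cells in sign (median -0.34), and Pdia6 alone was called (-0.96 ± 0.21, limma adjusted p = 0.01195), beside 1.81% of all genes called higher and 1.85% lower. Pdia3 (-0.54 ± 0.15) and Hsp90b1 (-0.43 ± 0.12) lay just past the threshold, with limma adjusted p of 0.05196 and 0.05387. With array weights 6 members were called, and 0 were called without mutant Sca1-negative pool 3 or without mutant Sca1-positive pool 2. Ero1l was at 8.36, 8.69 and 8.31 in Sca1-negative and 7.75, 7.45 and 7.24 in Sca1-positive mutant pools, without overlap (-0.97 ± 0.31, limma adjusted p = 0.1089).

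Over the 12 pairs of groups 24 members were called at least once and 15 never, beside 30.7% of all genes called at least once and 42.3% of those above the median. The 15 were the chaperones and cofactors Creld2, Dnajb11, Dnajb9, Dnajc3, Hyou1, Manf and Sdf2l1, the disulfide formers Ero1l, P4hb and Pdia4, the degradation factors Derl3, Herpud1 and Sel1l, the translocon core Sec61a1 and the stress factor Ddit3. Sdf2l1, a cofactor of BiP, had the narrowest range of group means, 0.41 between 6.90 and 7.30, and Derl3 followed with 0.45. Dnajc3, the BiP cofactor p58IPK, had the widest of the chaperones, from 8.62 in mutant basal GFP-negative to 9.98 in control luminal Sca1-positive cells, with a median SD within groups of 0.28. Herpud1, a degradation factor induced by ER stress, ranged from 7.94 in mutant basal GFP-positive to 9.03 in mutant luminal Sca1-negative cells. P4hb, the most studied disulfide isomerase, stayed between 9.84 and 10.40.

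Other genes of the pathway, taken as whole lists, gave the following counts in the basal GFP-positive comparison of mutant with control, in which 4.74% of all genes were called higher. The lists share its control arrays, so each is also given against control basal GFP-negative cells, where 2.29% were. Of 31 further genes of ER to Golgi transport 7 were higher and 0 lower (median 0.56), among them the small GTPases Arf4 (0.72 ± 0.14) and Sar1b (1.78 ± 0.40) and the coat proteins Sec24a and Sec13. Against control GFP-negative cells 3 were higher and the median was 0.21. Without the 2 control arrays, which leaves 1, the median was 0.52. Of 25 further genes of translocation and N-glycosylation 6 were higher and 0 lower (median 0.56), among them Stt3a, a catalytic subunit of the oligosaccharyltransferase (1.18 ± 0.17, limma adjusted p = 0.0004296). Against control GFP-negative cells 0 were called and the median was 0.07, and without the 2 control arrays the median was 0.32. Of 29 further folding and quality control genes 3 were higher, namely Lman1, Ppib and Os9, and 0 lower (median 0.19), and against control GFP-negative cells 2 others, Txndc5 and Edem3 (median 0.01). Of 27 targets of PERK and ATF4, 2 were higher, Vldlr and Psat1, and 1 lower, Nupr1 (median 0.15), and those 2 were also called against control GFP-negative cells. Of 15 cytosolic and mitochondrial chaperones 0 were higher and 1 lower. In luminal Sca1-negative cells the same 5 lists had 1 call in all, Stc2, lower in mutant cells.

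In control mice the PERK and ATF4 targets had the most calls of these 5 lists between Sca1-negative luminal and basal cells, 8 higher and 0 lower of 27, led by Nupr1, Stc2, Nars and Cebpg, beside 4.93% of all genes. Genes of ER to Golgi transport had 7 of 31 higher in control luminal Sca1-positive than in basal cells, among them Uso1, a vesicle tether, and Tmed3, a cargo receptor, beside 7.35% of all genes. Genes of matrix cargo and collagen folding went with the basal gates, with 14 of 18 lower in each control luminal group, beside 4.9% and 5.77% of all genes.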

How the data were processed

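Expression was read from the deposited table of log2 values per probe set, 1 column per array. Per the submitters' processing notes the software affy was used; the background correction, normalization and annotation version are not given in the sources used here. Values ran from 2.586 to 13.538, and array medians from 4.386 to 4.554. Of 34760 probe sets 21640 had 1 gene symbol, 1321 several and 11799 none in the platform annotation, and those with 1 were used, with the probe set of highest mean kept per gene (19937 genes). No array was left out.

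A limma fit (limma 3.58.1 in R 4.3.3, lmFit and eBayes) estimated 8 group means from all 24 arrays, with 16 residual degrees of freedom. There were 12 contrasts of group pairs and 3 of differences between genotype effects. P-values were two-sided and adjusted by Benjamini-Hochberg over all genes within each contrast, and genes under 0.05 were called. The fit was tested on simulated data, and no result of that test is given here. Mice were pooled per genotype in 3 independent sortings, so gates of the same genotype may share mice, which the fit does not take into account. The p-values rest on the spread between arrays within groups, and the number of arrays limits the precision.

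The 39 members and the other gene lists were chosen with earlier results of these data known. All members are accounted for. Array values are given for up to 6 members each way with the largest difference among those called in a comparison, and always for Hspa5, Xbp1, Ero1l, Derl3, Creb3l1 and Ddit3. From other lists up to 4 called genes of smallest p may be named, with milk proteins, keratins and Ptprc as context; Pdia4 and Ssr3 and others below the threshold were named after their values were seen. Same-numbered arrays were checked for pairing: their deviations correlated at -0.077 to 0.192, and in 0 of 12 comparisons were all 3 correlations over 0.1. The arrays were therefore treated as unpaired. The labels do not say whether the numbers stand for sortings, and such correlations cannot exclude pairing. Alternatives were quantile normalization, leaving out dim genes, array weights, the mean of all probe sets, only the compared groups, a replicate block, another control group, leaving out each array and, added after the data were seen, leaving out 2 or all 3 control basal GFP-positive arrays.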

Additional observations from a re-analysis of the deposited data

Results flagged for a closer look

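Among the members 3 genotype differences were not the same in both cell groups compared, by a test of the difference itself in the limma fit. For Calr the mutant minus control difference was larger in basal GFP-positive than in basal GFP-negative cells by 0.86 on the log2 scale (limma adjusted p = 0.03228), and for Pdia3 by 1.09 (0.01324). Both calls ended without the 2 control basal GFP-positive arrays that stand apart in signal. For Pdia6 the difference in luminal Sca1-positive cells minus that in luminal Sca1-negative cells was -2.02 (limma adjusted p = 0.003345). Groups of 3 arrays are too small to be tested for a single outlying array.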

How the results depend on the processing

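No member value changed sign with its call. Of the 8346 member values under other settings, 203 lost a call, 42 gained one and 8101 kept their side of the threshold. Most of the 8346 belong to members not called in the full fit, which had no call to lose. The 8101 therefore do not measure how well the calls held. With only the compared groups in the fit, the members called numbered 0 (9 in the full fit) for mutant against control basal GFP-positive cells, 0 for luminal Sca1-positive cells, 3 and 3 for control luminal Sca1-negative and Sca1-positive against basal cells, 0 between the control luminal groups, 0 for GFP state in either genotype, and 0 for the differences of genotype effects by GFP state and between luminal gates. After quantile normalization the counts were 3 for basal GFP-positive cells, 1 between the control luminal groups, 0 for GFP state in control and in mutant cells and 1 for the genotype effect by GFP state. With dim genes left out they were 0 for GFP state in control and in mutant cells and 1 for the genotype effect by GFP state. With array weights they were 6 between the mutant luminal groups, 0 for GFP state in control cells, 2 in mutant cells and 1 for the genotype effect by GFP state. Against control basal GFP-negative cells, 1 member was called in mutant basal GFP-positive cells. With the replicate number as a block, although it is not known to pair the arrays, the counts were 2 between the mutant luminal groups and 1 for the genotype effect by GFP state. No other count moved by over 1.5 times. The cause was not tested.

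Leaving out each array in turn gave 5 to 11 calls for basal GFP-positive cells, 3 to 10 and 4 to 9 for control luminal Sca1-negative and Sca1-positive against basal cells, 1 to 4 between the control luminal groups, 1 to 3 and 5 to 6 for mutant luminal Sca1-negative and Sca1-positive against basal cells, and 0 to 1 between the mutant luminal groups. It gave 0 to 2 for GFP state in control cells, 0 to 1 in mutant cells, 1 to 4 for the genotype effect by GFP state and 0 to 1 for that between Sca1-negative luminal and basal GFP-positive cells. Alternatives without control basal GFP-positive arrays were added after the data were seen. Without the 2 that stand apart, 2 members were called for basal GFP-positive cells, 0 for GFP state in control cells and 0 for the genotype effect by GFP state. Leaving out all 3 ended the calls of Eif2ak3 in control Sca1-negative (adjusted p = 0.05044) and Derl2 in control Sca1-positive cells (0.0566). Members near the median level of all genes, such as Creb3l1 and Derl3, have little room to fall.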
